A study of Mus musculus with 6 samples.

Results

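The genes described here encode the subunits of integrins and laminins in ID8 cells, an epithelial line derived from the ovarian surface of C57BL/6 mice. They were taken by symbol from the gene count table, as every row named for an integrin alpha subunit, an integrin beta subunit or a laminin alpha, beta or gamma chain. This gave 37 of the 41327 genes in the table, namely 18 integrin alpha, 8 integrin beta and 11 laminin genes. Total RNA was sequenced from 6 libraries, 3 of genotype Trp53-/- (Trp53_KO) and 3 of genotype Trp53+/+ (Trp53_WT). All cells were labelled immortalized and untreated and were growing asynchronously, and the labels name no other allele or agent. How Trp53 was inactivated, whether a genotype is 1 clone, and whether replicates are separate cultures are not stated in the labels. The p-values below thus rest on variation among libraries that could be purely technical.

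Integrins are receptors made of an alpha and a beta subunit that span the cell membrane. The pairing sets what they bind: collagens, laminins, proteins with an Arg-Gly-Asp (RGD) motif such as fibronectin, or counter-receptors on other cells. Laminins are trimers of an alpha, a beta and a gamma chain that form the sheet on which epithelial cells rest, the basement membrane, and the surface epithelium of the ovary lies on such a sheet. The comparison asks how RNA for these receptors and ligands differs between Trp53_KO and Trp53_WT cells.

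Total gene counts lay between 15319956 and 19954170 per library. Levels are given as CPM, counts scaled to a common library size, after TMM scaling, which corrects for library composition, and differences as log2 fold changes of Trp53_KO against Trp53_WT from edgeR's quasi-likelihood test, with Benjamini-Hochberg adjustment over all 13651 genes tested. A gene is called higher or lower at an adjusted p under 0.05. Trp53 itself was at 29.6, 25.5 and 25.3 CPM in the Trp53_KO libraries and at 110.1, 97.3 and 104.7 CPM in the Trp53_WT libraries, a log2 fold change of -1.95 ± 0.09 (SE, edgeR adjusted p = 2.7e-07). Trp53_WT replicate 1 stood apart from the other Trp53_WT libraries, with a chi-square per degree of freedom of 27.5 and 26.9 against them, where replicates 2 and 3 gave 2.01. Of 12 ovarian surface and mesothelial markers, 11 passed the filter on low counts, with 6 higher and 4 lower in Trp53_KO. Over all genes tested, 14.1% were higher and 16.1% lower. Msln was at 1172.6 ± 45 CPM in Trp53_KO and 1401.2 ± 33 CPM in Trp53_WT, and Krt8 at 492 ± 29 and 611 ± 22 CPM (SD, n = 3 each). Bnc1, of the same list, was at 0.073 ± 0.030 CPM in Trp53_KO and 38.9 ± 1.9 CPM in Trp53_WT (edgeR adjusted p = 1.7e-09). Those that rose included Lrrn4 (65.5 ± 0.8 CPM in Trp53_KO against 0.235 ± 0.094 in Trp53_WT), Upk3b (531 ± 52 against 73.7 ± 5.0), Aldh1a1 (156 ± 2.0 against 40.0 ± 1.8) and Wt1 (339 ± 20 against 192 ± 7.9). In such bulk libraries, fewer cells of a type and less RNA per cell cannot be told apart.

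The laminin chain Lamb3 and the integrin subunits Itga2, Itgb7 and Itgb4 fell furthest in Trp53_KO, while Lamb1, Lama3, Itgb5 and Itgb8 rose. Of the 37 members, 24 passed the filter on low counts and were tested. Of these, 15 were called (over all genes tested, 30.3%), with 4 higher (14.1% of all genes) and 11 lower (16.1%), and 9 were not called. For 17 of the 24 members every library of 1 genotype lay above every library of the other (46.0% of all genes tested). A difference of at least 2-fold was called for 7 members (9.22% of all genes), higher for Lama3 and Itgb8 and lower for Itga2, Itgb7, Itgb4, Lamb3 and Lamc3. The median log2 fold change of the tested members was -0.32 beside -0.02 over all genes tested, and the median absolute log2 fold change was 0.62 beside 0.21. The other 13 members gave too few counts for a test.

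**Figure D1:**
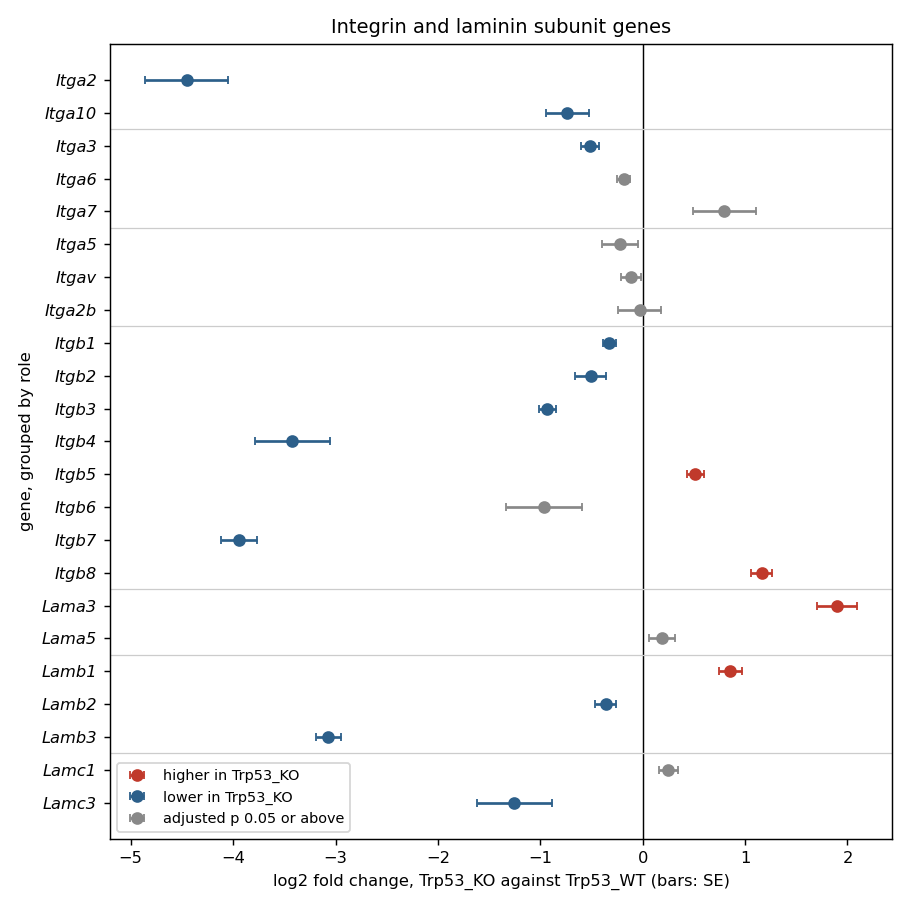
Log2 fold change of Trp53_KO against Trp53_WT (horizontal axis) for the tested integrin and laminin subunit genes described in the text, grouped by role, with bars for the SE. The 4 genes called higher are red, the 11 called lower are blue, and Itga2 lies farthest from 0 at -4.45.

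The alpha subunits that bind collagen were low in this line, and both tested members fell (over all genes tested, 16.1% were lower). Itga2 encodes the alpha 2 subunit, which pairs with beta 1 as a collagen receptor. It gave 4, 0 and 3 counts in the Trp53_KO libraries and 42, 54 and 61 counts in the Trp53_WT libraries, or 0.204, 0 and 0.160 CPM against 2.84, 2.67 and 3.27 CPM. The Trp53_KO libraries were at or near 0 and every Trp53_WT library was above them. The log2 fold change was -4.45 ± 0.41 (SE), a level 21.9-fold higher in Trp53_WT (edgeR adjusted p = 2.8e-05). The counts alone give a larger SE of 0.56, so the fitted SE is too small for this gene, as it is for Itgb7 (0.25 from counts), Lama3 (0.22), Itga7 (0.37) and, barely, Lamc3 (0.37). Itga2 lies on chromosome 13, 114833081 to 114932100, on the minus strand (GRCm38, the assembly of mm10).

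Itga10 encodes the alpha 10 subunit, another collagen receptor. Its level was 1.89, 2.11 and 1.28 CPM in Trp53_KO and 2.84, 3.17 and 2.73 CPM in Trp53_WT. The groups did not overlap, and the log2 fold change was -0.74 ± 0.21 (SE, edgeR adjusted p = 0.024). That call was lost without Trp53_KO replicate 1 or 3, without Trp53_WT replicate 2 and in DESeq2. Exons of Itga10 share 1739 bases with the gene model Gm42957 on the same strand, so reads there could be split between the genes and the value is uncertain. Of the other collagen-binding subunits, Itga11 gave 17 counts over the Trp53_KO libraries and 5 over the Trp53_WT libraries, and Itga1 gave 1 count in each group. Neither was tested.

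The laminin-binding subunits Itga3 and Itga6 were the most abundant alpha subunits, and Itga3 fell, while the third of this role, Itga7, was scarce. Itga3 encodes alpha 3, which with beta 1 forms a laminin receptor. Its level was 771, 657 and 729.7 CPM in Trp53_KO and 1141, 982 and 951 CPM in Trp53_WT. Every Trp53_KO library lay below every Trp53_WT library, with a log2 fold change of -0.51 ± 0.09 (SE, edgeR adjusted p = 0.0018). Itga6 encodes alpha 6, which pairs with beta 1 or beta 4, and was at 685, 684 and 621 CPM in Trp53_KO against 777, 771 and 718 CPM in Trp53_WT. Its groups did not overlap either, but the log2 fold change of -0.19 ± 0.07 did not pass the test (SE, edgeR adjusted p = 0.061). Itga7, the subunit best known from muscle, was at 0.777 ± 0.099 CPM in Trp53_KO and 0.441 ± 0.090 CPM in Trp53_WT (SD, n = 3 each; edgeR adjusted p = 0.078).

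None of the 3 tested alpha subunits that bind RGD ligands was called by edgeR (over all genes tested, 30.3% were called). Itgav encodes alpha v, the partner of 5 different beta subunits measured here (Itgb1, Itgb3, Itgb5, Itgb6 and Itgb8). It was at 351, 365 and 350.1 CPM in Trp53_KO and 446, 376 and 332 CPM in Trp53_WT, and the groups overlapped (log2 fold change -0.11 ± 0.10, SE, edgeR adjusted p = 0.42). Itga5 encodes alpha 5, which with beta 1 is the main fibronectin receptor. Its level was 149, 131 and 137 CPM in Trp53_KO and 221, 135 and 130.4 CPM in Trp53_WT, so among Trp53_WT libraries only replicate 1 lay above the Trp53_KO range. With that library left out the log2 fold change of Itga5 moved from -0.22 to 0.064, and that of Itgav from -0.11 to 0.0033. Itga2b, the platelet subunit, was at 1.80 ± 0.19 and 1.82 ± 0.36 CPM (SD, n = 3 each; log2 fold change -0.03 ± 0.21, SE, edgeR adjusted p = 0.93). Itga8 gave no count in any library. Exons of Itgav share 634 bases with the opposite-strand gene model Gm13684, and those of Itga7 share 9 with Mettl7b.

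Itga4 also gave no count, and Itga9 gave 1 count in all 6 libraries together. The alpha subunits of leukocytes were as scarce: Itgad and Itgam were at 0 in every library, Itgal and Itgax gave 1 count each, and Itgae gave 3 counts over the Trp53_KO and 4 over the Trp53_WT libraries. A count of 0 allows up to 3 counts in a library, or 0.148 to 0.203 CPM, which covers counting error only. Exons of Itgam share 3450 bases and those of Itgad 330 bases with other gene models on the same strand (Gm49368 and Gm17831), and those of Itga4 share 1124 bases with Cerkl on the opposite strand. Reads that fall in shared bases may go uncounted, so these zeros are uncertain, most of all that of Itgam. Its shared bases are 3450 of 5024 exon bases. For Itgad they are 330 of 4510 on the same strand, and for Itga4 1124 of 13978 on the opposite strand.

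All 8 integrin beta subunits were tested, and 5 fell, 2 rose and 1 was not called (over all genes tested, 16.1% were lower and 14.1% higher). Itgb1 encodes beta 1, the common partner of collagen, laminin and fibronectin receptors. It was at 1024, 993 and 929.7 CPM in Trp53_KO and 1267, 1223 and 1204 CPM in Trp53_WT. No Trp53_KO library reached the lowest Trp53_WT library, and the log2 fold change was -0.33 ± 0.06 (SE, edgeR adjusted p = 0.0036).

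Among the beta subunits that pair with alpha v, Itgb3 fell while Itgb5 and Itgb8 rose. Itgb3 encodes beta 3, part of a receptor for vitronectin and osteopontin, and was at 32.9, 31.4 and 37.3 CPM in Trp53_KO against 66.7, 63.7 and 63.4 CPM in Trp53_WT. The log2 fold change was -0.93 ± 0.08 (SE, edgeR adjusted p = 2.6e-05), with no library of 1 group in the range of the other. Itgb5 encodes beta 5, a vitronectin receptor subunit, and was at 225, 189 and 229.7 CPM in Trp53_KO against 155, 150.5 and 146 CPM in Trp53_WT (log2 fold change 0.51 ± 0.08, SE, edgeR adjusted p = 0.0011). Itgb8 encodes beta 8, which with alpha v binds and activates latent TGF-beta. It was at 55.3, 59.0 and 55.7 CPM in Trp53_KO and 29.4, 23.5 and 23.3 CPM in Trp53_WT. All 3 Trp53_KO libraries were above all 3 Trp53_WT libraries, and the log2 fold change was 1.16 ± 0.10, a 2.24-fold level (SE, edgeR adjusted p = 2.0e-05). Itgb8 lies on chromosome 12, 119158022 to 119238802, on the minus strand. Itgb6, an epithelial partner of alpha v, was at 0.468 ± 0.176 CPM in Trp53_KO and 0.909 ± 0.287 CPM in Trp53_WT with overlapping groups (SD, n = 3 each; edgeR adjusted p = 0.079).

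Itgb4, Itgb7 and Itgb2, which are not partners of alpha v, fell as well. Itgb4 encodes beta 4, which pairs with alpha 6 alone and anchors epithelial cells through hemidesmosomes. It gave 16, 2 and 20 counts in Trp53_KO and 137, 127 and 130 counts in Trp53_WT, or 0.816, 0.121 and 1.06 CPM against 9.25, 6.28 and 6.97 CPM. Trp53_KO replicate 2 was the lowest, and all Trp53_KO libraries were far below Trp53_WT. The log2 fold change was -3.42 ± 0.37, a level 10.7-fold higher in Trp53_WT (SE, edgeR adjusted p = 8.3e-05). Itgb4 lies on chromosome 11, 115974709 to 116008412, on the plus strand, and 537 bases of its exons overlap the opposite-strand gene model B230344G16Rik. Whether the counting used strand is not given in the sources used here, so reads of the 2 genes may not be separated.

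Itgb7 encodes beta 7, known from lymphocytes, where it pairs with alpha 4 or alpha E. Its counts were 15, 8 and 12 in Trp53_KO and 142, 192 and 196 in Trp53_WT, or 0.765, 0.483 and 0.638 CPM against 9.59, 9.50 and 10.5 CPM. The groups were far apart. The log2 fold change was -3.94 ± 0.18, a level 15.4-fold higher in Trp53_WT (SE, edgeR adjusted p = 2.1e-07). Itgb7 lies on chromosome 15, 102215995 to 102231944, on the minus strand. Its partners Itga4 and Itgae were at 0 and at 7 counts over the 6 libraries.

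Itgb2, the beta subunit of leukocyte integrins, was at 5.61, 4.53 and 4.47 CPM in Trp53_KO and 6.55, 6.23 and 8.04 CPM in Trp53_WT (log2 fold change -0.51 ± 0.15, SE, edgeR adjusted p = 0.031). The groups did not overlap, but the call was lost without Trp53_KO replicate 2 or 3, without Trp53_WT replicate 3 and in DESeq2. Its partners Itgal, Itgam, Itgax and Itgad reached 2 counts in all. Of 14 leukocyte markers, 2 were tested and neither was called. Their summed level was 5.42 to 5.81 CPM in Trp53_KO and 6.28 to 6.65 CPM in Trp53_WT, most of it Cd68. Cd3e, Cd3g, Adgre1, Tyrobp and Spi1 were at 0 in every library, and the pan-leukocyte gene Ptprc gave 1 count over Trp53_KO and 9 over Trp53_WT, beside the 35 and 530 counts of Itgb7. Of 6 platelet and megakaryocyte markers, 3 were at 0 and Ppbp was lower in Trp53_KO, with sums of 0 to 0.102 CPM in Trp53_KO and 0.643 to 0.878 CPM in Trp53_WT.

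**Figure D2:**
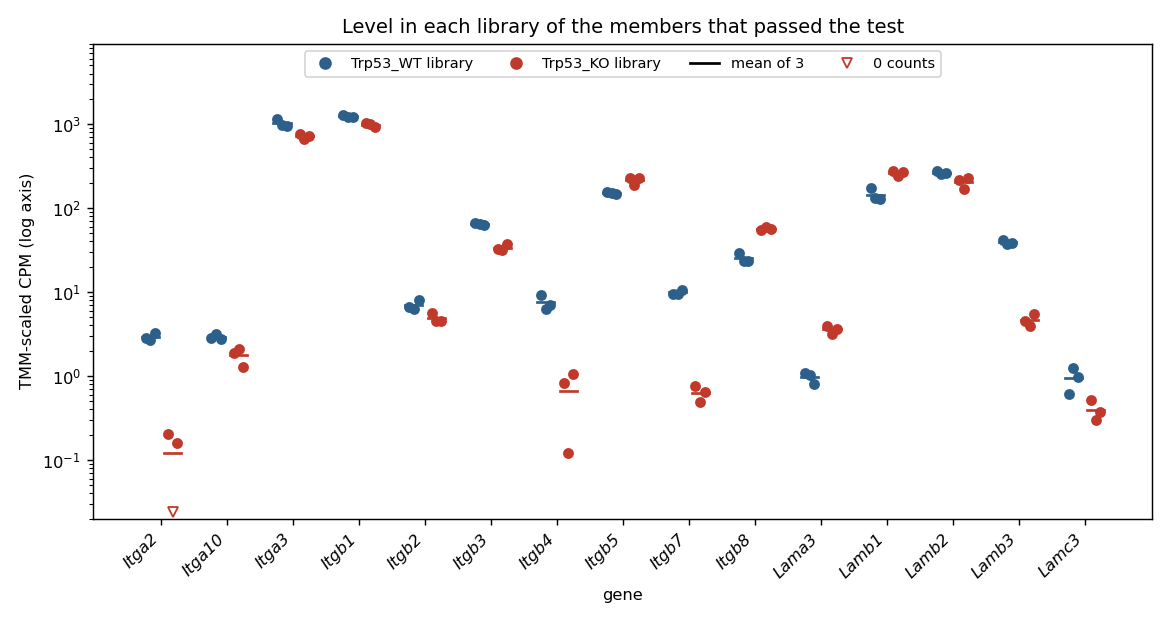
TMM-scaled CPM (vertical log axis) of the 15 called members in each Trp53_WT (blue) and Trp53_KO (red) library, with a line at the mean of 3 libraries and an open triangle for 0 counts. For Itga2, Itgb4, Itgb7 and Lamb3 the groups stand an order of magnitude or nearly so apart, whereas Itga3 and Itgb1 differ by small steps at high levels.

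The promoters of Itgb7 and Itgb8 are printed because these 2 genes had the smallest adjusted p of the beta subunits in each direction, a choice made after their values were seen. The windows are the 250 bases before the RefSeq start on GRCm38.p6, 5′ to 3′ along the gene. That of Itgb7 is chr15:102231936-102232185 on the minus strand, and that of Itgb8 is chr12:119238277-119238526 on the minus strand. In GENCODE M21 the Itgb8 gene starts farther upstream, at 119238802, so its window lies inside that gene model. Capitals mark matches to any of the motifs listed with the laminin promoters, and Itgb7 holds none.
Itgb7: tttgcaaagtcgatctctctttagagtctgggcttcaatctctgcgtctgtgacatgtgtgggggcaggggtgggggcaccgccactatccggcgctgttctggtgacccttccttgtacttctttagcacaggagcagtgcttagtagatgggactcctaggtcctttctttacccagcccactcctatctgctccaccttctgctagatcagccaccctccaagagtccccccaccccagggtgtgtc
Itgb8: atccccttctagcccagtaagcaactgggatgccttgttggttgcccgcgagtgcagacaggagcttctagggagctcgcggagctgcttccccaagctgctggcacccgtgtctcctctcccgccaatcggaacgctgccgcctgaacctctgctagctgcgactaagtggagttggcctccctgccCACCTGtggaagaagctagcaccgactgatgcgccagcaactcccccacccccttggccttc
The capitals in Itgb8 are 1 match on the reverse strand to CAGGTG, the E2 box bound by ZEB and SNAI factors.

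Laminin alpha chains were almost entirely Lama5, and the minor chain Lama3 rose. Lama5 encodes alpha 5, a chain of the basement membranes of many mature epithelia. It was at 919, 735 and 989 CPM in Trp53_KO and 898, 719 and 702 CPM in Trp53_WT, with overlapping groups (log2 fold change 0.19 ± 0.12, SE, edgeR adjusted p = 0.29). Lama3 encodes alpha 3, a chain that joins Lamb3 in an epithelial laminin. Its counts were 78, 53 and 69 in Trp53_KO and 16, 21 and 15 in Trp53_WT, or 3.98, 3.20 and 3.67 CPM against 1.08, 1.04 and 0.804 CPM. All Trp53_KO libraries were above all Trp53_WT libraries, with a log2 fold change of 1.90 ± 0.20, a 3.72-fold level (SE, edgeR adjusted p = 6.5e-05). Exons of Lama3 share 197 bases with the opposite-strand gene model Gm29200. Lama2 gave 15 counts over Trp53_KO and 19 over Trp53_WT, Lama4 gave 0 and 2, and Lama1 gave none.

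All 3 laminin beta chains were called, and not in 1 direction (over all genes tested, 30.3% were called). Lamb3 encodes beta 3, a chain of an epithelial laminin. Its counts were 88, 65 and 102 in Trp53_KO and 611, 745 and 722 in Trp53_WT, or 4.49, 3.92 and 5.42 CPM against 41.2, 36.8 and 38.7 CPM. No Trp53_KO library came near a Trp53_WT library. The log2 fold change was -3.07 ± 0.12, a level 8.40-fold higher in Trp53_WT, and its edgeR adjusted p of 9.5e-08 was the smallest of the members (SE). Lamb3 lies on chromosome 1, 193207699 to 193343878, on the plus strand.

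Lamb1 encodes beta 1, a chain shared by several laminins, and was at 275, 240.3 and 265 CPM in Trp53_KO against 172, 133 and 127 CPM in Trp53_WT. The groups were apart, with a log2 fold change of 0.86 ± 0.11, a 1.81-fold level (SE, edgeR adjusted p = 3.1e-04). Lamb2 encodes beta 2, which takes the place of beta 1 in other laminins, and was at 217, 171 and 225 CPM in Trp53_KO against 277, 253 and 259 CPM in Trp53_WT. It fell by less, with a log2 fold change of -0.36 ± 0.10 (SE, edgeR adjusted p = 0.022).

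Of the laminin gamma chains, Lamc3 was called lower and the abundant Lamc1 was not called. Lamc1 encodes gamma 1, found in most laminins, and was at 497, 436 and 492 CPM in Trp53_KO and 452, 378.5 and 367 CPM in Trp53_WT, with a small overlap. Its log2 fold change of 0.25 ± 0.09 had an edgeR adjusted p of 0.064 (SE), and the gene was called higher in 8 of 13 alternative analyses. Lamc3 was at 0.510, 0.302 and 0.372 CPM in Trp53_KO and 0.608, 1.24 and 0.965 CPM in Trp53_WT, from 22 and 52 counts in all. Its log2 fold change was -1.25 ± 0.36 (SE, edgeR adjusted p = 0.027), and the call was lost without any 1 of Trp53_KO replicates 2 and 3 and Trp53_WT replicates 2 and 3, and in DESeq2. Lamc3 lies on chromosome 2, 31887291 to 31946539, and 382 bases of its exons overlap the opposite-strand gene model Gm13441.

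Stratified epithelial markers moved in the direction of Lamb3 and Itgb4, but against Lama3, the chain that joins Lamb3, which rose. Of 6 such markers, 4 were tested and 3 were lower in Trp53_KO. Over all genes tested, 16.1% were lower and 14.1% higher. Krt14 was at 3.08 ± 0.48 CPM in Trp53_KO and 17.8 ± 0.5 CPM in Trp53_WT (SD, n = 3 each), Trp63 at 1.88 ± 0.13 and 2.70 ± 0.25 CPM, and Krt6a gave 0 and 46 counts. The summed level of the list was 5.27 to 5.56 CPM in Trp53_KO and 21.4 to 22.8 CPM in Trp53_WT, mostly Krt14. Krt5 was at 0 in all libraries. Fibroblast markers moved the other way, as did Lamb1, Lama3, Itgb5 and Itgb8. Of 6, 3 were tested and all 3 were higher, and the sums were 229 to 251 CPM against 101 to 108 CPM, mostly Dcn. One of these, Col15a1, is also among the basement membrane genes below and had 54 counts in Trp53_KO and 23 in Trp53_WT. Of 8 smooth muscle and pericyte markers, 5 were tested, with 3 higher and 1 lower, and the sums overlapped (35.2 to 39.4 CPM against 33.8 to 36.9 CPM). Of 9 endothelial markers, Pecam1 alone was tested and was higher, and Cdh5, Kdr, Emcn, Cldn5 and Erg were at 0, while Vwf gave 0 counts in Trp53_KO and 16 in Trp53_WT. The part of these markers in the member differences was not tested.

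The promoters of Lamb3 and Lamb1 are printed as those of the laminin genes with the smallest adjusted p among the chains with a RefSeq window, in each direction, again chosen after their values were seen. The Lamb3 window is chr1:193301744-193301993 on the plus strand, the first of 2 for this gene, and the Lamb1 window is chr12:31265043-31265292 on the plus strand (250 bases before the RefSeq start, GRCm38.p6, 5′ to 3′). In GENCODE M21 the Lamb3 gene starts at 193207699, so its window lies inside that gene model. The Lamb1 window runs past the GENCODE M21 start at 31265234.
Lamb3: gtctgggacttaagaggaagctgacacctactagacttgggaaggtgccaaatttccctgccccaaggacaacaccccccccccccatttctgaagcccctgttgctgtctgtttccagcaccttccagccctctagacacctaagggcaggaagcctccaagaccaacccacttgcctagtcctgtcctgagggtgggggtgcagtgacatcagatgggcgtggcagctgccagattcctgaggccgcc
Lamb1: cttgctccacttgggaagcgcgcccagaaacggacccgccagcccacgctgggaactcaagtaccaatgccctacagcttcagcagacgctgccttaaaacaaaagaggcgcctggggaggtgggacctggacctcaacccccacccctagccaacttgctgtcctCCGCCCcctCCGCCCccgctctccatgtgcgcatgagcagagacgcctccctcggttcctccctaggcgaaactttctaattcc
The capitals in Lamb1 are 2 matches on the reverse strand to GGGCGG, the box bound by SP1, and the printed Lamb3 window holds no match.

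Promoter windows were found for 23 of the 37 members, 26 windows in all, and 6 motifs were searched on both strands. GGGCGG was in 9 of the 26 windows (34.6%, against 32.7% of all 32851 windows). CAGGTG was in 8 (30.8%, against 17.2%), which included Itgb8, Itgb5, Itga3, Lama5 and the other Lamb3 window. GGAATG, bound by TEAD factors, was in 3 (11.5%, against 12.6%), in Itgb1, Itga10 and the other Lamb3 window. TGANTCA, bound by AP-1, was in 1 (3.85%, against 6.75%), in Itgax, and TATAAA in none (against 12.4%). The decamer of the p53 response element was in 1 window (3.85%, against 7.13%), that of Itga9, which had 1 count. These are letter matches in a short window and not sites.

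Per length, a different order of the members appears than in CPM. Levels between genes are compared here as CPM per kb of exon (the union of a gene's exons in GENCODE M21). Itgb1 was the most abundant member in both genotypes, at 241 ± 12 CPM per kb in Trp53_KO and 302 ± 7.9 in Trp53_WT (SD, n = 3 each). Itga3 followed at 126 ± 10 and 179 ± 18 CPM per kb. In both genotypes neither of these overlapped with the next gene. Below them in Trp53_KO came Lama5 (77.4 ± 11.5) and Itga6 (73.5 ± 4.0), whose ranges overlapped, then Itgb5 (60.4 ± 6.3) and Lamc1 (57.4 ± 4.1), which overlapped as well. In Trp53_WT the order was Itga6 (83.7 ± 3.6), Lama5 (67.9 ± 9.5), Lamc1 (48.2 ± 5.6), Lamb2 (43.3 ± 2.1) and Itgb5 (42.4 ± 1.4), and Lamc1, Lamb2, Itgb5 and Itgav each overlapped with the next in order, which for Itgav was Itga5. Lamb3 was at 5.89 ± 0.33 CPM per kb in Trp53_WT and 0.698 ± 0.115 in Trp53_KO, and Itgb7 at 3.56 ± 0.20 and 0.227 ± 0.051. The order depends on the length used: with the longest transcript in place of the union, Itga6 rose from 73.5 to 154 CPM per kb in Trp53_KO, above Itga3 at 148.

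**Figure D3:**
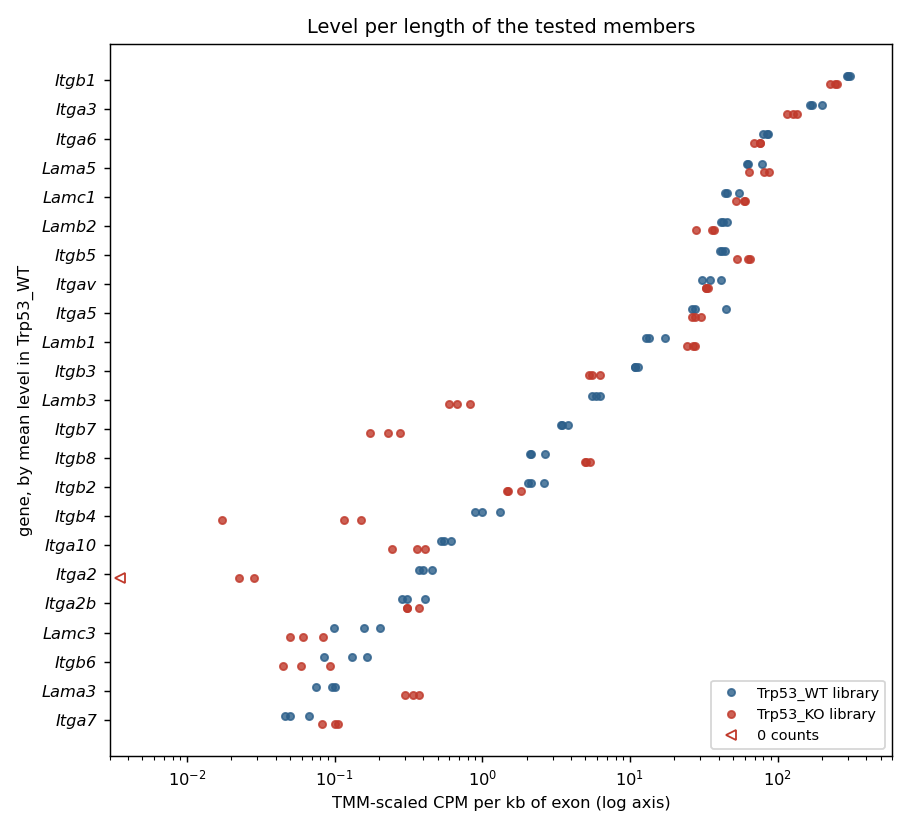
Level per length (horizontal log axis, TMM-scaled CPM per kb of exon) of the tested members described in the text in each Trp53_WT (blue) and Trp53_KO (red) library, ordered by the Trp53_WT mean, with an open triangle for 0 counts. Itgb1 is the highest in both genotypes, and Lamb3 and Itgb7 shift left by nearly an order of magnitude or more.

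The make-up of the laminin beta chain RNA shifted toward Lamb1. As shares of the summed CPM per kb of the 3 chains, Lamb1 was 43.2%, 45.8% and 41.4% in Trp53_KO and 25.1%, 22.1% and 20.9% in Trp53_WT. Lamb2 was 55.4% ± 2.1 against 68.0% ± 1.9 and Lamb3 1.15% ± 0.11 against 9.26% ± 0.27 (SD, n = 3 each). The groups were apart for all 3 chains. With longest-transcript lengths Lamb1 was 54.8% ± 2.2 in Trp53_KO and 31.1% ± 2.6 in Trp53_WT, so that it then exceeded Lamb2 (44.0% ± 2.1) in Trp53_KO, while the shift between genotypes kept its direction. The summed level of the beta chains was 60.6 ± 6.6 CPM per kb in Trp53_KO and 63.7 ± 4.8 in Trp53_WT. Lama5 made up 99.5% and 99.8% of the alpha chain sum.

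The beta subunits that pair with alpha v shifted from Itgb3 to Itgb5 and Itgb8. Within their sum, with Itgb1 left out because it has many other partners, Itgb3 was 8.05% ± 0.46 in Trp53_KO and 19.6% ± 0.2 in Trp53_WT. Itgb5 was 84.6% ± 1.2 against 76.0% ± 0.4, Itgb8 was 7.24% ± 0.96 against 4.11% ± 0.43, and Itgb6 was under 1% in every library. These groups did not overlap for Itgb3, Itgb5 and Itgb8. The Itgb6 share did not overlap either (0.059% to 0.126% in Trp53_KO, 0.148% to 0.307% in Trp53_WT), though its CPM did. The sum itself was 71.3 ± 6.5 CPM per kb in Trp53_KO and 55.7 ± 1.9 in Trp53_WT, while the Itgav level overlapped between genotypes. Shares are of RNA and were described without a test.

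**Figure D4:**
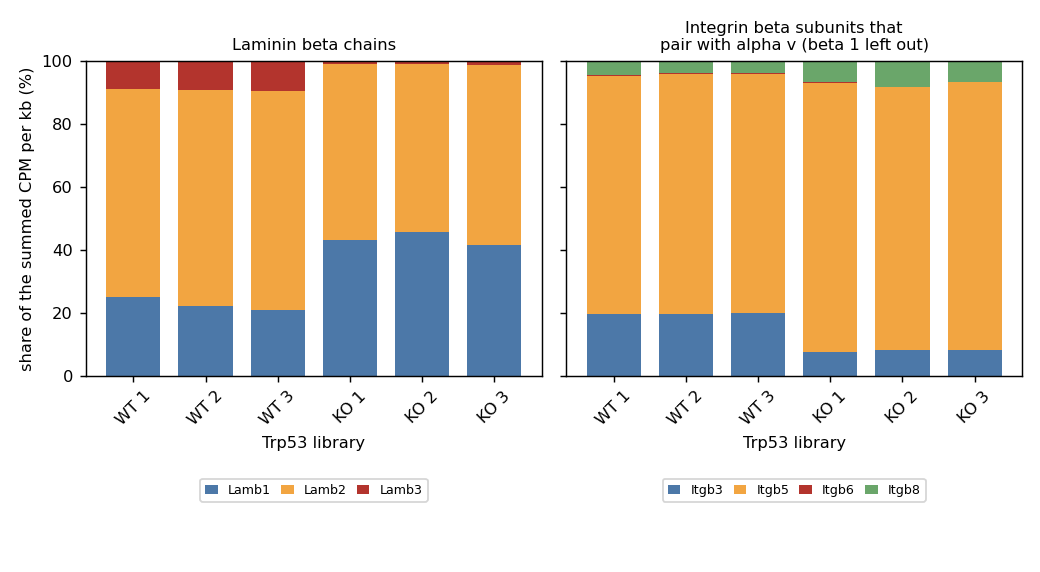
Shares (vertical axis, %) of the summed CPM per kb in each library for laminin beta chains and the integrin beta subunits that pair with alpha v. Lamb1 takes 41.4% to 45.8% of the beta chain bar in Trp53_KO against 20.9% to 25.1% in Trp53_WT, and Itgb3 falls from 19.6% to 8.05% on average in the right panel.

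For 11 members with many intronic repeats, the median fold change of those repeats had the sign of the gene's own, though single repeats went both ways. The authors' deposited table of repeats lists 773731 rows, each a repeat locus and read direction with 1 log2 fold change of Trp53_KO against Trp53_WT, no value per library and no depth. In it, 1237 rows were annotated to 31 of the members, 1107 of them read in the direction of the gene. These are the members with at least 20 intronic rows in the gene's direction, a minimum chosen after the rows were counted. Below that minimum, Lamb2 with 3 rows had a median of 0.11 in the authors' deposited table beside -0.36 for the gene. Itgb2, with 5 rows of which 4 were above 0, had 0.77 in the authors' deposited table beside -0.51. Itgb4 (-1.73 over 11 rows) and Itgb7 (-2.49 over 7 rows), also below it, had the sign of the gene in the authors' deposited table. For Itgb8 the intronic median was 1.26 over 65 rows, with 58 above 0, beside 1.16 for the gene. For Itgb5 it was 0.55 over 174 rows, with 123 above 0, beside 0.51, and for Lamb1 0.69 over 63 rows, with 46 above 0, beside 0.86. Among genes that fell, Itgb3 had -0.76 over 93 rows (59 below 0) beside -0.93, Itga3 -0.63 over 55 rows (48 below 0) beside -0.51, and Itgb1 -0.37 over 84 rows (60 below 0) beside -0.33. Of the members that were not called, Itga6 had 45 rows above and 61 below 0, and Itgav 40 and 55. Lamc1 had the largest gap, 0.0046 over 152 rows (83 above and 69 below 0) beside 0.25. The gene and the repeat values come from the same libraries, and rows of 1 gene are not independent.

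**Figure D5:**
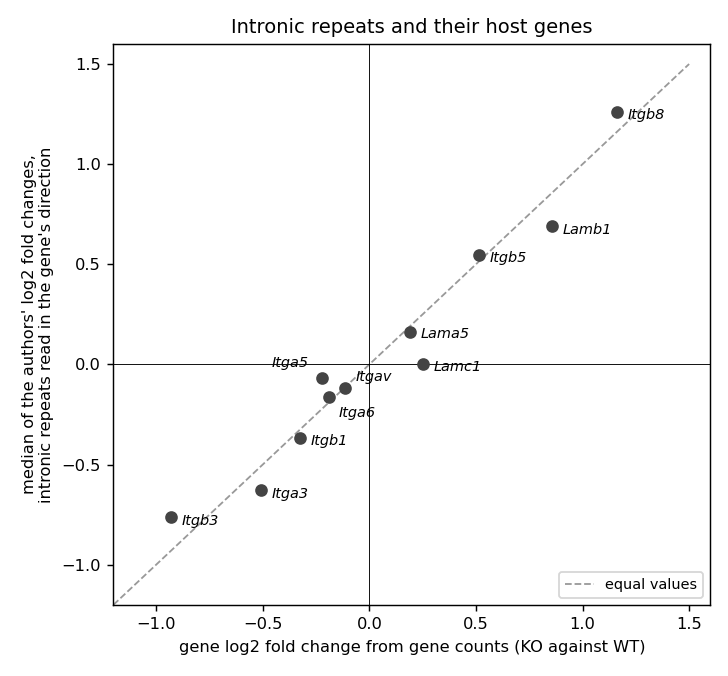
Median of the authors' log2 fold changes over intronic repeats read in the gene's direction (vertical axis) against the log2 fold change from gene counts (horizontal axis) for 11 members, with a dashed line for equal values. Itgb8 lies at the upper end and Itgb3 at the lower end, close to the line, and Lamc1 lies below it.

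By the authors' deposited FDR under 0.05, 9 of the 1237 rows were called (0.728%), a share near that of the whole table (0.672%). Of these, 4 were read in the gene's direction. In the authors' deposited table they are a (GCTG)n repeat in an exon of Itgb7 at -4.32, a MIRb element in an intron of Itgb8 at 3.76, an A-rich stretch in an intron of Lamb1 at 4.73 and an AT-rich stretch in the 3′ UTR of Itgb1 at -0.39. The other 5 were read against the gene, and 3 of them lie together in Itgb6. In the authors' deposited table these are the SINE PB1D7 (-3.83, FDR 0.0016), the LTR element RMER13B (-3.82, FDR 6.7e-09) and the LTR element MTEb (-3.33, FDR 0.043), within chromosome 2, 60693089 to 60694787. GENCODE M21 lists no gene on the plus strand inside Itgb6, and 16 of the 18 antisense intronic rows there were below 0 in the authors' deposited table. Apart from the rows named above, none of them had an FDR under 0.05. Intergenic rows of the same read direction beyond the Itgb6 start, from 60723311 to 60737790, were below 0 as well, and none was called.

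Basement membrane genes other than laminins included Col4a1 and Sparc among those that rose, and integrin ligands moved in both directions. Of 20 other basement membrane genes, 12 were tested, with 6 higher and 2 lower (66.7% called, beside 30.3% of all genes tested) and a median log2 fold change of 0.28. Col4a1, a collagen IV chain, was at 643 ± 32 CPM in Trp53_KO and 293 ± 21 in Trp53_WT (SD, n = 3 each; log2 fold change 1.13), and Col4a5 rose by a log2 fold change of 0.46. Sparc, a collagen-binding matrix protein, rose by a log2 fold change of 0.87, and Papln had 138 counts in Trp53_KO and 3 in Trp53_WT. The collagen IV chain Col4a2 was not called (log2 fold change 0.13, edgeR adjusted p = 0.33), nor were Hspg2, Agrn and Nid1. The 2 that fell were Ntn1, with 0 counts in Trp53_KO and 52 in Trp53_WT, and Ntn4 (log2 fold change -0.50). Of 27 non-laminin ligands, 18 were tested, with 5 higher and 7 lower (66.7% called) and a median of -0.22. Npnt, a ligand of the alpha 8 beta 1 integrin, was at 12.3 ± 0.8 CPM in Trp53_KO and 72.3 ± 15.3 in Trp53_WT, although Itga8 gave no count. Col3a1, a fibrillar collagen chain, was at 268 ± 26 and 3.08 ± 0.51 CPM, Tnc (tenascin C) at 47.2 ± 5.0 and 0.476 ± 0.119 CPM, and Emilin1 at 14.4 ± 2.6 and 1.73 ± 0.29 CPM. The ligands that fell also included Spp1 (osteopontin), at 609 ± 9.9 CPM in Trp53_KO and 1060 ± 41 in Trp53_WT, Ltbp1 and Thbs1. Vtn (vitronectin) gave no count.

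Of the adaptors and the other laminin receptors, Tns1 and Sdc2 rose and Sgcb fell. Of 30 focal adhesion and adaptor genes, 25 were tested, with 8 higher, 1 lower and 16 not called. The share called, 36.0%, was near the 30.3% of all genes tested, and the median log2 fold change was 0.02. Nedd9, a docking protein, rose by a log2 fold change of 0.84, Tns1, which links integrins to actin, by 1.14, and Kank1 by 0.35, while Cav1, the caveolae protein, had -0.33. Of 11 non-integrin laminin receptors and their partners in the table, 7 were tested, with 2 higher and 2 lower (57.1% called). The syndecan Sdc2 had a log2 fold change of 1.13 and Sdc1 -0.42. Sgcb, a sarcoglycan, had -1.16, and Dag1, dystroglycan, had 0.52 with Trp53_WT replicate 1 at 507 CPM near the Trp53_KO libraries (512 to 584 CPM). The Dag1 call was lost when any library other than Trp53_WT replicate 1 was left out. Of 9 hemidesmosome and tetraspanin partners, all tested, 3 were lower, 1 was higher and 5 were not called (44.4% called). The tetraspanin Cd9 had a log2 fold change of -0.67 and Cd63 0.33. Col17a1, a hemidesmosome collagen, had -1.26 from 0.494 ± 0.075 and 1.17 ± 0.32 CPM, and Dst -0.32. The calls of Col17a1 and Dst were each lost without Trp53_KO replicate 1, that of Col17a1 also without Trp53_WT replicate 2 and in DESeq2, and that of Dst also without Trp53_KO replicate 2.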

How the data were processed

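Stranded total RNA libraries were made from column-purified, DNase I-treated RNA, per the labels' protocols. STAR, featureCounts and edgeR on mm10 are named in the submitters' processing notes. Their versions and settings, and the annotation, are not stated there. Raw gene counts were deposited by the authors as whole numbers, with a table of repeats with a log2 fold change and an FDR, an adjusted p-value, per locus. That scale was read as log2 because the deposited values had a median ratio of 1.07 to gene log2 fold changes over 740 rows, where natural logarithms would give 0.693. The read direction suffix matched the gene strand for 88.0% of 38905 exonic rows.

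Counts were fitted with edgeR 4.0.16 (R 4.3.3) on all 6 libraries: filterByExpr, TMM, the genotype as the only term, and Benjamini-Hochberg adjustment over all genes tested. The SE, which is approximate, was obtained from the log2 fold change and the F statistic. The script was tested on simulated counts. No pair of replicates agreed within sampling noise, and the biological coefficient of variation was 9.75%. Lengths and overlaps came from GENCODE M21, promoters from RefSeq (GRCm38.p6). Alternatives were other size factors, other filters, a replicate block, each library left out, DESeq2 1.42.0 and limma-voom (limma 3.58.1).

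The members and all gene lists were chosen with earlier results of these data known. By rule, values in every library are given for each called member and the most abundant member of a role, and up to 4 genes with the lowest adjusted p are named for each pathway list. Further genes of the basement membrane and ligand lists were named after their values were seen. Other members, and the promoters, were picked for description after their values were seen. Counts over all members include a gene that is not reported here by name or value.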

Additional observations from a re-analysis of the deposited data

How the results depend on the processing

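Of the 15 called members, 12 kept their call and sign in all 13 alternative analyses. The calls of Lamc3, Itga10 and Itgb2 were lost as described, and Lamc3 was not tested with a filter of 1 CPM in 3 libraries. Over the alternatives, 4 to 6 members were called higher and 8 to 13 lower. Without Trp53_WT replicate 1, the calls added included Lamc1 and Lama5 as higher and Itgb6 as lower. The median log2 fold change of the members, taken only with other size factors or with 1 library left out, ranged from -0.35 to -0.27. Some members without a call changed sign when libraries were left out: Itga5 ranged from -0.35 to 0.064, Itgav from -0.20 to 0.0033 and Itga2b from -0.13 to 0.16. The other members without a call kept their sign, and Itga6 was called lower in limma-voom (limma-voom adjusted p = 0.048). At a stricter FDR under 0.01, 5 repeat rows in members were called. With the replicate number as a replicate block, 5 members were called higher and 10 lower, and Lamc3 was lost. Same-numbered libraries did not deviate together (correlations -0.05, 0.08 and -0.12), so the numbers do not pair them, and 1 of the 3 Trp53_KO libraries (replicate 2) correlated best with its own number. Depth limits the 13 members with too few counts, which were not tested, and members under 1 CPM rest on few counts. The same alternatives for Trp53 and the pathway genes named by lowest adjusted p were added after the data were seen. Among these genes only the calls of Dag1, Col17a1 and Dst were lost in any of them.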
